A study of Mus musculus with 4 samples.

Results

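The genes described here are 10 transcripts that growth factor signalling through ERK is known to induce: the MAP kinase phosphatase genes Dusp4, Dusp5 and Dusp6, the Sprouty and Spred genes Spry1, Spry2, Spry4 and Spred1, the ETS factor genes Etv4 and Etv5, and the AP-1 gene Fosl1. They were chosen by symbol from 38293 gene rows, and all 10 had a row. The RNA came from 4 mammary tumours, 2 from mice with wild-type Axl (WT) and 2 from AXL knockout mice (AXL KO), of the strain FVB. All 4 tumours share the MMTV-Neu background, in which the mouse mammary tumour virus promoter drives the rat Neu (Erbb2) oncogene in mammary epithelium. The labels do not say how old the mice were, how the Axl allele was made or whether replicates were separate animals. The p-values therefore rest on the spread between these samples alone, shared in part over genes by the fit, and that spread may be technical.

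ERK is the last kinase of the RAS, RAF and MEK cascade below receptor tyrosine kinases such as the ERBB receptors. Active ERK phosphorylates transcription factors in the nucleus, and among the genes that follow are inhibitors of the same cascade. DUSP phosphatases remove the activating phosphates from MAP kinases, and Sprouty and Spred proteins act further up, at RAS and RAF. ETV4 and ETV5, of the PEA3 group of ETS factors, and FOSL1, a partner of JUN proteins in AP-1, carry the signal on to other genes. AXL is a receptor tyrosine kinase as well, and the comparison asks how tumours driven by Neu differ when AXL is missing.

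Promoter windows, each from 250 bases before to 50 bases after a transcription start in RefSeq (GRCm38.p6), were found for 6 of the 10 genes: Dusp5, Dusp6, Spry1, Spry2, Spred1 and Etv5. Windows of Dusp4, Spry4, Etv4 and Fosl1 were not analysed here. The windows of Dusp5 and Dusp6 are shown because the levels of these phosphatase genes set WT replicate 2 apart from the other 3 libraries. Each is cut before the first annotated start, and capitals mark the matches on either strand to the CArG box (the site of serum response factor), to AGGAAG (PEA3) or to GGGCGG (SP1).
Dusp5 (chr19:53528895-53529108, plus strand): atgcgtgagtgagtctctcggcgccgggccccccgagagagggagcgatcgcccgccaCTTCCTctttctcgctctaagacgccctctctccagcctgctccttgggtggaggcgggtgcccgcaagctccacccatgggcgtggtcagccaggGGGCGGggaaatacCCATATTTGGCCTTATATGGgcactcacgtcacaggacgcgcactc
Dusp6 (chr10:99262981-99263230, plus strand): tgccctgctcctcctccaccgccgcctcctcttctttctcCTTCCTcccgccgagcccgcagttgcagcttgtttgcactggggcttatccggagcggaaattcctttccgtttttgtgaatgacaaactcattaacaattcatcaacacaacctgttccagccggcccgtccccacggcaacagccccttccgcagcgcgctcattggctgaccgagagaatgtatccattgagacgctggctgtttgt

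The Dusp5 window held 2 CArG boxes that abut each other, from 82 to 73 and from 72 to 63 bases before the RefSeq start. A CArG box was in 1.63% of all 32851 windows, and 2 or more were in 6 windows, 0.0183%. Its PEA3 letters lay 192 to 187 bases before the start, and those of Dusp6 lay 210 to 205 bases before it. AGGAAG was in 35.4% of all windows and in 3 of the 7 windows of these genes, the third being one of 2 windows of Etv5. GGGCGG was in 4 of the 7 windows, against 35.7% of all. The ETS letters CCGGAA (14.9% of all windows) were in the Spry2 window. The AP-1 letters TGANTCA (7.81%), the CRE letters TGACGTCA (1.79%) and TATAAA (13.6%) were in 0 of the 7. The GC content of the 7 windows ran from 57.3% to 74.0%, and the median of all windows was 52.7%. The letters are a description of these windows only.

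Reads counted in genes ran from 18929743 to 33131739 per library, and 18015 to 18879 genes had a count. Axl, the targeted gene, was at 61.8 and 35.2 CPM in WT replicates 1 and 2, against 4.75 and 4.89 CPM in the AXL KO pair. CPM is the number of reads of a gene per 1000000 reads counted, with library sizes adjusted by TMM factors, and it is not divided by gene length. Erbb2, the driver gene, was at 10967 and 12594 CPM in the WT pair, against 19776 and 19975 CPM in AXL KO, so the groups did not overlap. Its log2 difference of 0.75 had a standard error of 1.05 (edgeR unadjusted p = 0.502). That error draws on the spread of other genes too, and the Erbb2 libraries were 1.15-fold apart within WT and 1.01-fold within AXL KO. Erbb2 overlaps Mien1 on the other strand. Counts per gene do not separate reads of the rat transgene from those of mouse Erbb2. The labels' sequencing identifiers begin alike for 3 libraries and differently for AXL KO replicate 2, so values without that library are those within the shared identifier.

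Of the 10 genes, 9 passed the filter on low counts, and 0 of the 9 differed between AXL KO and WT past an adjusted p of 0.05 in edgeR's quasi-likelihood test (adjusted p = 0.9997 for each), in DESeq2 or in limma-voom. Over all 14330 genes tested, edgeR called 0 genes (0%) and limma-voom 0 (0%), while DESeq2 called 16 (0.112%). At an unadjusted p under 0.05 edgeR gave 1 of the 9, Dusp4, which was lower, and 314 of all genes, 2.19% (1.15% higher and 1.04% lower). The log2 difference, AXL KO minus WT, was positive for 4 genes and negative for 5. Its median was −0.029, and the median over all tested genes was −0.0019. Both AXL KO libraries lay outside both WT libraries for 4 of the 9, above for Dusp6 and Etv5 and below for Dusp4 and Etv4, and the same held for 29.2% of all tested genes. The 2 WT libraries differed from each other as well: WT replicate 2 was the highest of the 4 libraries for Spry1, Spry4, Spred1 and Etv4 and the lowest for Dusp5, Dusp6, Spry2 and Etv5. WT replicate 2 was the highest or lowest library for 8 of the 9 genes and for 70.4% of all tested genes, so standing at an end was common in that library. Within the 3 libraries whose identifiers begin alike, all 9 log2 differences had the same sign as with all 4, among them −0.47 for Dusp4, 0.88 for Dusp6, −1.50 for Spry4, −0.26 for Etv4 and 0.46 for Etv5.

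**Figure D1:**
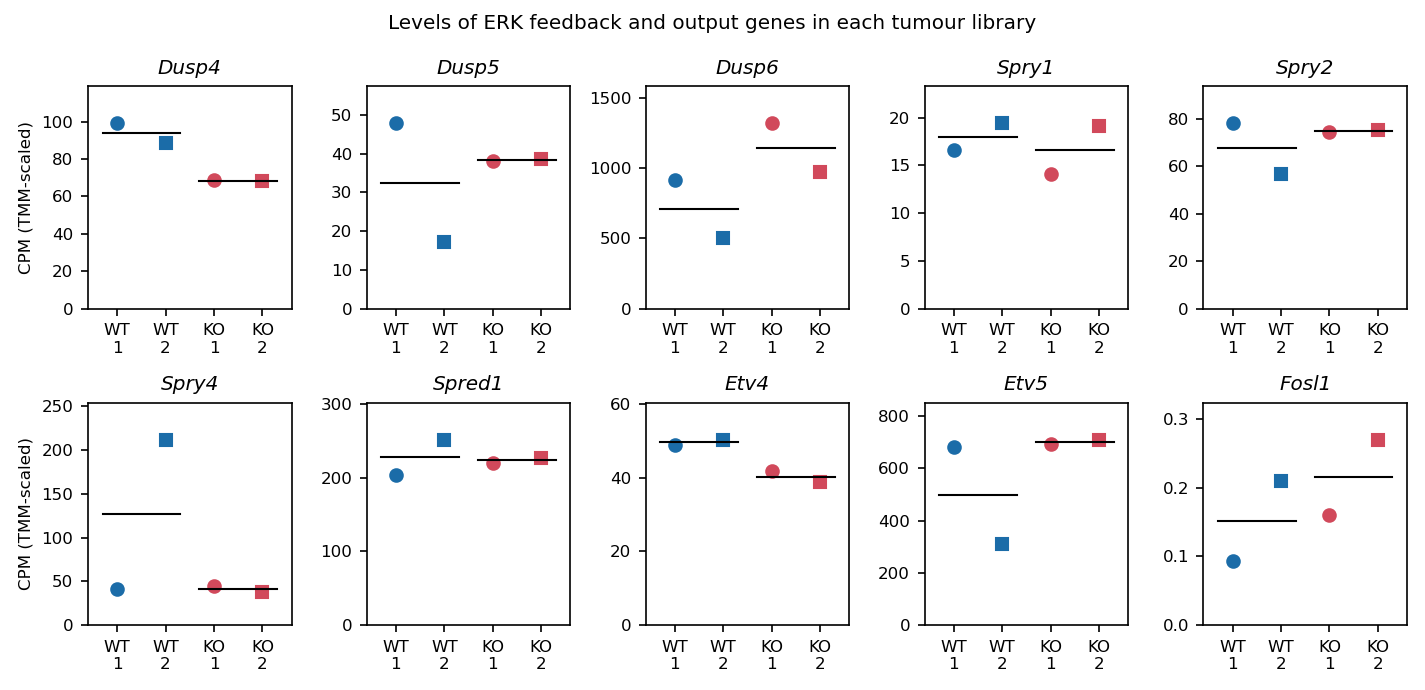
Level of each of the 10 genes in CPM (linear axes from 0, with a scale of its own per gene) in the 2 WT libraries (blue) and 2 AXL KO libraries (red), circles for replicate 1, squares for replicate 2 and lines for group means. Dusp4 and Etv4 were lower in both AXL KO libraries, and Spry4 stood at 212 CPM in WT replicate 2 against 37.6 to 45.0 CPM in the other 3.

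Dusp4 encodes a nuclear phosphatase of ERK, JNK and p38. Dusp4 (ENSMUSG00000031530) lies on the plus strand of chromosome 8, from 34807297 to 34819894 in GRCm38. It had 2124 and 1692 reads in WT replicates 1 and 2, against 1284 and 2285 reads in the AXL KO pair, which is 99.3, 88.6, 68.6 and 68.5 CPM. Both AXL KO libraries were thus below both WT libraries, and the AXL KO pair was nearly equal. The WT mean was 93.9 ± 7.59 CPM and the AXL KO mean 68.5 ± 0.0354 CPM (SD, n = 2 each), a 1.37-fold lower level. On the log2 scale the difference was −0.45 ± 0.17 (SE), with a 95% interval from −0.88 to −0.03. In edgeR this gave an unadjusted p of 0.0404 and, over all genes, an adjusted p of 0.9997. With each library left out in turn it stayed negative, from −0.54 without WT replicate 2 to −0.36 without WT replicate 1, and it was −0.47 without AXL KO replicate 2. Dusp4 was the only one of the 9 whose interval lay on 1 side of 0.

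Dusp6 encodes a cytoplasmic phosphatase that acts on ERK with high specificity and is widely used as a readout of ERK output. On chromosome 10 it spans 99263231 to 99267489 on the plus strand (ENSMUSG00000019960). Its level was 914 and 504 CPM in the WT libraries and 1322 and 972 CPM in the AXL KO libraries. The AXL KO values were above both WT values, but the gap from 914 to 972 CPM was smaller than the distance between the libraries within either group. The log2 difference was 0.69 ± 0.39 (SE), with an interval from −0.30 to 1.68 (edgeR unadjusted p = 0.132, adjusted p = 0.9997). It was 0.32 without WT replicate 2 and 1.19 without WT replicate 1, so the size of the difference followed which WT tumour was used.

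Dusp5 encodes a nuclear phosphatase that binds and inactivates ERK. Dusp5 (ENSMUSG00000034765; chromosome 19, 53529109 to 53542431, plus strand) was at 47.9 and 17.1 CPM in the WT pair, against 38.2 and 38.7 CPM in AXL KO. The AXL KO pair lay between the WT libraries, which differed 2.80-fold from each other. The log2 difference was 0.24 ± 0.48 (SE), with an interval from −0.99 to 1.47. Its sign turned with the WT library left out, from −0.32 without WT replicate 2 to 1.17 without WT replicate 1. The 3 phosphatase genes therefore had no common direction across the libraries: Dusp5 and Dusp6 were lowest in WT replicate 2, and Dusp4 was highest in WT replicate 1 and next highest in WT replicate 2.

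Sprouty proteins are induced by growth factors and dampen signalling from receptors to RAS and RAF. Spry4 (ENSMUSG00000024427) was at 41.2 CPM in WT replicate 1, 212 CPM in WT replicate 2, 45.0 CPM in AXL KO replicate 1 and 37.6 CPM in AXL KO replicate 2. WT replicate 2 was 4.71 times the next highest library, and the other WT library lay between the AXL KO libraries. The WT mean was 127 ± 121 CPM, and that of AXL KO was 41.3 ± 5.24 CPM (SD, n = 2 each). The log2 difference of −1.62 ± 0.74 (SE) had an interval from −3.49 to 0.26 (edgeR unadjusted p = 0.0781, adjusted p = 0.9997). Without WT replicate 2 it was −0.0013, and without WT replicate 1 it was −2.35. In that last comparison edgeR gave an adjusted p of 0.0144, which was the only call among these genes under any alternative, and over the alternatives the adjusted p of Spry4 ran from 0.0144 to 1. Without WT replicate 1, edgeR called 246 of 14849 genes (1.66%).

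Spry2, the Sprouty gene best studied in epithelia, had no such peak. Spry2 (ENSMUSG00000022114; chromosome 14, 105891947 to 105896819, minus strand) was at 78.1 and 56.9 CPM in the WT pair, against 74.6 and 75.1 CPM in AXL KO. WT replicate 2 was the low library, and the other 3 lay close together. The log2 difference was 0.15 ± 0.21 (SE), with an interval from −0.40 to 0.69, and it was −0.07 without WT replicate 2. Spry1 (ENSMUSG00000037211; chromosome 3, 37639947 to 37644598, plus strand) was at 16.6 and 19.4 CPM in the WT pair, against 14.0 and 19.1 CPM in AXL KO. The groups overlapped, with replicate 1 the lower library in each group. Its log2 difference was −0.11 ± 0.27 (SE), with an interval from −0.81 to 0.58, and turned to 0.0032 without WT replicate 2 and 0.09 without AXL KO replicate 1. The Sprouty genes thus split in WT replicate 2, where Spry4 was high, Spry1 slightly high and Spry2 low.

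Spred1 encodes a membrane protein that brings the RAS inhibitor neurofibromin to the plasma membrane. Spred1 (ENSMUSG00000027351; chromosome 2, 117121374 to 117182279, plus strand) was at 204 and 252 CPM in the WT pair, against 220 and 227 CPM in AXL KO. The AXL KO pair lay between the WT libraries. Its log2 difference of −0.03 ± 0.19 (SE) was the nearest to 0 of the 9, with an interval from −0.52 to 0.46, and was 0.13 without WT replicate 2.

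Etv4 and Etv5 encode related ETS factors, and they differed from each other in these libraries. Etv4 (ENSMUSG00000017724; chromosome 11, 101769742 to 101785371, minus strand) was at 48.8 and 50.4 CPM in the WT pair, against 41.8 and 38.8 CPM in AXL KO. Both AXL KO libraries were below both WT libraries, and each group was tight. The WT mean was 49.6 ± 1.10 CPM, with 40.3 ± 2.07 CPM as the AXL KO mean (SD, n = 2 each), a 1.23-fold lower level. The log2 difference of −0.30 ± 0.17 (SE) had an interval from −0.75 to 0.15 (edgeR unadjusted p = 0.146, adjusted p = 0.9997). It ran from −0.36 to −0.26 with 1 library left out. Etv4 and Dusp4 were the genes whose groups stayed apart in the same direction under all 3 scalings and whose difference kept close to its size without WT replicate 2.

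Etv5 (ENSMUSG00000013089; chromosome 16, 22381309 to 22439719, minus strand) was at 684 and 311 CPM in the WT pair, against 693 and 711 CPM in AXL KO. The low value of WT replicate 2 set the group means apart, while WT replicate 1 was within 10 CPM of AXL KO replicate 1. Scaled by library totals instead of TMM factors, the groups of Etv5 overlapped. The log2 difference was 0.50 ± 0.41 (SE), with an interval from −0.54 to 1.54 (edgeR unadjusted p = 0.277). Without WT replicate 2 it was 0.03, and without WT replicate 1 it was 1.18. Etv5 was 2.20-fold apart between the WT libraries and 1.02-fold apart between the AXL KO libraries.

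Fosl1, which encodes the AP-1 protein FRA-1, was close to silent in these tumours. It had 2 and 4 reads in the WT pair, against 3 and 9 reads in AXL KO, or 0.0935, 0.209, 0.160 and 0.270 CPM. The groups overlapped, and the counts were too low for the fit. Fosl1 (ENSMUSG00000024912; chromosome 19, 5447547 to 5455946, plus strand) overlaps Ccdc85b on the other strand, and without a stated strand setting their reads cannot be told apart.

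Per length, as CPM per kilobase of annotated exon and averaged over the 4 libraries, Dusp6 at 296 and Etv5 at 146 were the most abundant of the 10. They stood above 99.3% and 98.4% of the tested genes on that scale. Dusp6 was above Etv5 in each library, though their ranges over the libraries overlapped, at 161 to 422 for Dusp6 and 75.9 to 173 for Etv5. Spry2 (34.1 CPM per kilobase), Spred1 (33.3) and Dusp4 (29.6) followed and did not differ beyond their spread. Spry4 (17.7), Etv4 (14.5) and Dusp5 (14.4) overlapped as well, with the mean of Spry4 raised by WT replicate 2. Spry1 (5.95), near the middle of all tested genes, lay below all of these in every library but not far from Dusp5 in WT replicate 2, at 6.68 against 6.92. Fosl1 was last, at 0.0901 CPM per kilobase. Dusp6 and Etv5 together took 74.9%, 53.9%, 80% and 76.9% of the reads of the 10 genes in the 4 libraries, WT first, so WT replicate 2 was the low library.

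Ratios between these genes within a library do not depend on the scaling, and they set WT replicate 2 apart. Per kilobase, Dusp6 stood to Spry4 as 33.6 to 1 in WT replicate 1, 3.61 in WT replicate 2, 44.6 in AXL KO replicate 1 and 39.2 in AXL KO replicate 2. The ratio of Etv5 to Spry4 was 19.2, 1.70, 17.8 and 21.9 in the same order. In both, 3 libraries were alike and WT replicate 2 was about an order of magnitude lower. The ratio of Etv5 to Etv4 was 10.6, 4.67, 12.5 and 13.8, and that of Dusp6 to Dusp4 was 8.05, 4.98, 16.9 and 12.4. The ratio of Spry2 to Spry1 was 6.57, 4.08, 7.39 and 5.465. Both AXL KO libraries were above both WT libraries in the ratios of Dusp6 to Spry4, Etv5 to Etv4 and Dusp6 to Dusp4. For Etv5 to Etv4 and Dusp6 to Dusp4 this follows from the single genes and adds nothing to them. Etv5 and Dusp6 were higher, and Etv4 and Dusp4 lower, in both AXL KO libraries. The groups overlapped in the ratios of Etv5 to Spry4 and Spry2 to Spry1. The share over all pairs of genes was not counted. These ratios were chosen after the values were seen and were not tested.

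**Figure D2:**
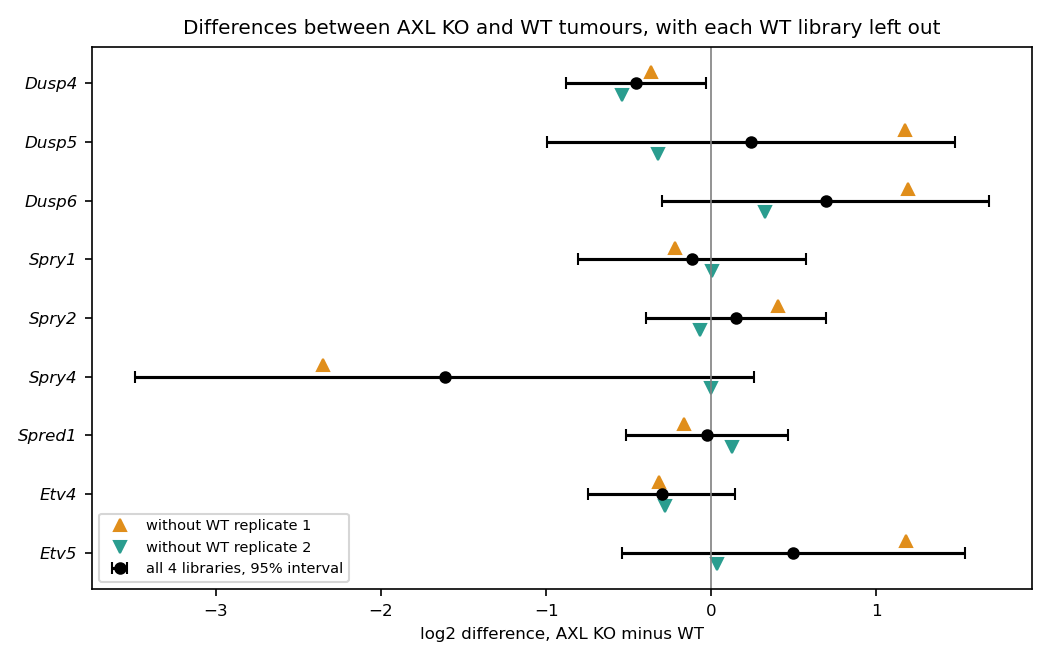
Log2 difference, AXL KO minus WT, for the 9 genes tested: black points with 95% intervals use all 4 libraries, upward triangles leave out WT replicate 1 and downward triangles leave out WT replicate 2. Spry4, Dusp5, Dusp6 and Etv5 moved widely with the WT library left out, and Dusp4 and Etv4 moved little.

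Among the other MAP kinase phosphatase, Sprouty and Spred genes, 9 of 10 were tested and 0 passed edgeR's test over all genes or had an unadjusted p under 0.05. Of these, 6 had positive and 3 negative log2 differences, with a median of 0.11 that was −0.11 without WT replicate 2. The groups did not overlap for 2, of which 1 was higher and 1 lower in AXL KO, where all tested genes gave 14.7% and 14.5%. Spry3 had 0 reads in all 4 libraries. Dusp1, the immediate early phosphatase gene, was at 6.78 and 19.2 CPM in the WT pair, against 4.11 and 8.10 CPM in AXL KO, so WT replicate 2 was high as for Spry4. Dusp8, which encodes a phosphatase of stress-activated kinases, was at 47.2 and 43.1 CPM in the WT pair, against 41.3 and 31.9 CPM in AXL KO, without overlap. Dusp2 stayed below 1 CPM in every library. Dusp1 overlaps Ergic1 on the other strand.

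The other ETS, AP-1 and EGR factor genes had lower values in AXL KO more often than higher ones. Of 14 tested (Egr3 was too low), 11 had negative and 3 positive log2 differences, with a median of −0.33, and 0 passed edgeR's test. The groups did not overlap for 7, with AXL KO below WT for 6 and above for 1, where all tested genes gave 14.5% and 14.7%. Without WT replicate 2 the median was −0.22, again with 11 negative. Fos, the founding AP-1 gene, was at 9.63 and 26.3 CPM in the WT pair, against 6.36 and 7.59 CPM in AXL KO, with a log2 difference of −1.36 ± 0.52 (SE; edgeR unadjusted p = 0.0461) that was −0.47 without WT replicate 2. Jun, which encodes the main partner of FOS proteins, was at 78.3 and 79.6 CPM in the WT pair, against 59.0 and 60.4 CPM in AXL KO. Its groups were tight and apart, as for Dusp4, with a log2 difference of −0.40 ± 0.16 (SE; edgeR unadjusted p = 0.0533) and −0.39 without WT replicate 2. Junb was at 40.0 and 72.7 CPM in the WT pair, against 29.1 and 35.7 CPM in AXL KO. Jun and Junb overlap genes on the other strand, the antisense gene Junos and Prdx2. Egr1, an immediate early gene downstream of ERK and serum response factor, was chosen after its values were seen, since it followed Spry4: it was at 65.2 and 234 CPM in the WT pair, against 75.6 and 66.0 CPM in AXL KO. Its log2 difference of −1.08 turned to 0.12 without WT replicate 2.

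Of 13 other output genes of growth factor signalling, 11 were tested, with 5 positive and 6 negative differences, a median of −0.13 (−0.03 without WT replicate 2) and 0 that passed. AXL KO lay above WT without overlap for 1 and below for 3, where all tested genes gave 14.7% and 14.5%. Areg and Ereg, the genes of the EGF receptor ligands amphiregulin and epiregulin, were too low. Hbegf, another EGF receptor ligand gene, was at 2.53 and 14.2 CPM in the WT pair, against 1.60 and 2.49 CPM in AXL KO. Its WT replicate 2 value was 5.62 times the next highest library, and its log2 difference of −2.01 ± 0.85 (SE) was −0.28 without that library. Ier2, an immediate early gene, was at 72.5 and 80.5 CPM in the WT pair, against 58.5 and 60.1 CPM in AXL KO. Errfi1, which encodes the ERBB receptor inhibitor MIG6, was at 289 and 314 CPM in the WT pair, against 239 and 232 CPM in AXL KO. Ier2 and Errfi1 had both AXL KO libraries below both WT libraries, with log2 differences of −0.37 ± 0.17 and −0.36 ± 0.18 (SE; edgeR unadjusted p = 0.0798 and 0.0998).

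**Figure D3:**
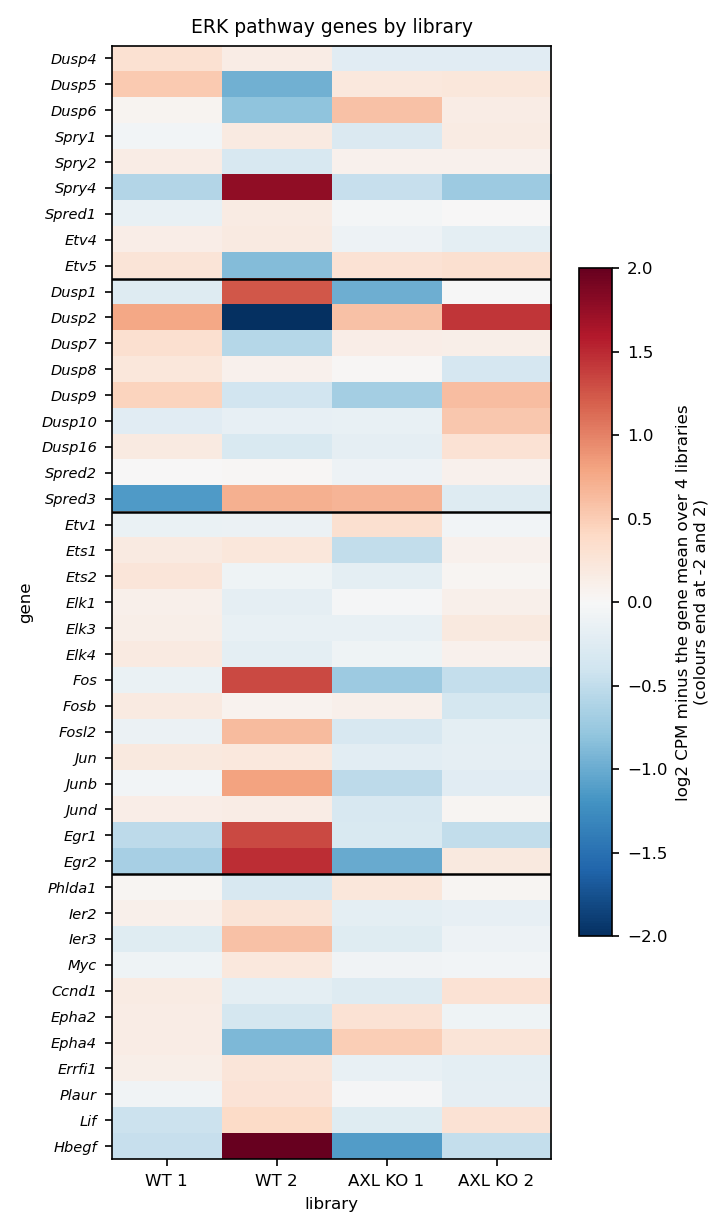
Log2 CPM of each gene minus its mean over the 4 libraries (red above, blue below; colours end at −2 and 2), one row per tested gene and one column per library. Black lines separate the 9 genes described first from the other phosphatase, Sprouty and Spred genes, the other transcription factor genes and the other output genes; WT replicate 2 is red for Spry4, Dusp1, Fos, Egr1 and Hbegf and blue for Dusp5, Dusp6 and Etv5.

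The genes of the cascade itself were balanced. All 22 RAS, RAF, MEK, ERK and adaptor genes listed were tested, with 11 positive and 11 negative differences and a median of 0.0006, and 0 passed. Without WT replicate 2, 16 were negative and the median was −0.14. Nf1, the gene of neurofibromin, was at 675 and 422 CPM in the WT pair, against 1213 and 812 CPM in AXL KO, and Hras at 105 and 113 CPM in the WT pair, against 149 and 134 CPM in AXL KO. Both had their AXL KO libraries above their WT libraries (edgeR unadjusted p = 0.057 and 0.0739). Over the 22 genes, AXL KO lay above WT without overlap for 4 (Nf1, Hras, Rasa1 and Braf). It lay below for 4 (Shc1, Gab1, Ksr1 and Mapk3), where all tested genes gave 14.7% above and 14.5% below. Nf1 has several genes within it on the other strand, so its counts are uncertain. Ksr1, which encodes a scaffold of RAF, MEK and ERK, was at 4.35 and 9.48 CPM in the WT pair, against 3.63 and 3.599 CPM in AXL KO.

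Of 11 receptor tyrosine kinase genes, 8 had positive and 3 negative differences, with a median of 0.22 that was 0.0053 without WT replicate 2. AXL KO lay above WT without overlap for 4 and below for 2, where all tested genes gave 14.7% and 14.5%. Axl had the largest difference, at −3.33 ± 0.35 (SE), with an edgeR unadjusted p of 0.000184 and an adjusted p of 0.9997. Egfr was at 101 and 83.3 CPM in the WT pair, against 132 and 111 CPM in AXL KO. Fgfr1 was at 303 and 330 CPM in the WT pair, against 558 and 363 CPM in AXL KO. Both lay higher in both AXL KO libraries, with unadjusted p-values of 0.0917 and 0.0993 in edgeR, and both overlap antisense genes.

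Marker lists showed how the 4 libraries differed in other respects. Summed over 10 hypoxia genes the level was 782 and 2361 CPM in WT replicates 1 and 2, against 1021 and 773 CPM in AXL KO, and WT replicate 2 was the highest library for all 10. Summed over 10 mitosis genes it was 520 and 1133 CPM in the WT pair, against 402 and 614 CPM in AXL KO, again with WT replicate 2 the highest for all 10. T and NK cell markers summed to 41.5 and 3.09 CPM in the WT pair, against 24.8 and 39.7 CPM in AXL KO, with WT replicate 2 the lowest for all 8. The library with high Spry4, Egr1 and Hbegf and low Dusp5, Dusp6 and Etv5 was thus also the one with high hypoxia and mitosis genes. Its T and NK cell genes were low. The part of these differences in the Spry4, Dusp5, Dusp6 and Etv5 results was not tested. In bulk tumour RNA, fewer cells of a type and less RNA per cell cannot be told apart.

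Luminal epithelial markers ranged from 3422 to 4095 CPM over the libraries, with Krt8 at 529 to 928 CPM. Basal markers summed to 26.8 and 54.5 CPM in the WT pair, against 16.2 and 28.3 CPM in AXL KO. Acta2 was the most abundant of them in each library, at 9.99 to 46.6 CPM, while the keratin genes Krt5 and Krt14 were below 1.4 CPM. Trp63 was higher in both AXL KO libraries, and Krt5 and Oxtr were lower in both. Fibroblast markers summed to 701 and 1014 CPM in the WT pair, against 289 and 937 CPM in AXL KO, lowest in AXL KO replicate 1 for 7 of 8. Endothelial markers ran from 101 to 142 CPM, macrophage markers from 508 to 815 CPM and adipocyte markers from 58.3 to 121 CPM. B cell and neutrophil markers summed to at most 1.36 and 6.21 CPM. Of the 11 lists, the sums of 3 did not overlap between the groups, and single genes did not overlap for 29.2% of all tested. The luminal sum was lower in both AXL KO libraries, at 3477 and 3422 CPM against 3661 and 4095 CPM. Of its 8 genes 2 did so singly, Krt18 and Cldn7, against 14.5% of all tested genes. The small B cell sum was lower as well, at 1.12 and 0.570 CPM against 1.26 and 1.36 CPM. Of its 4 genes only Cd79b passed the low-count filter, and its log2 difference of 0.50 went the other way. The neutrophil sum was higher, at 5.45 and 6.21 CPM against 5.10 and 3.04 CPM, with Csf3r the most abundant of its 4 genes in each library, while S100a8 was lower in both AXL KO libraries. No listed marker was at 0 reads in all 4 libraries. The part of these markers in the Dusp4 and Etv4 values was not tested.

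**Figure D4:**
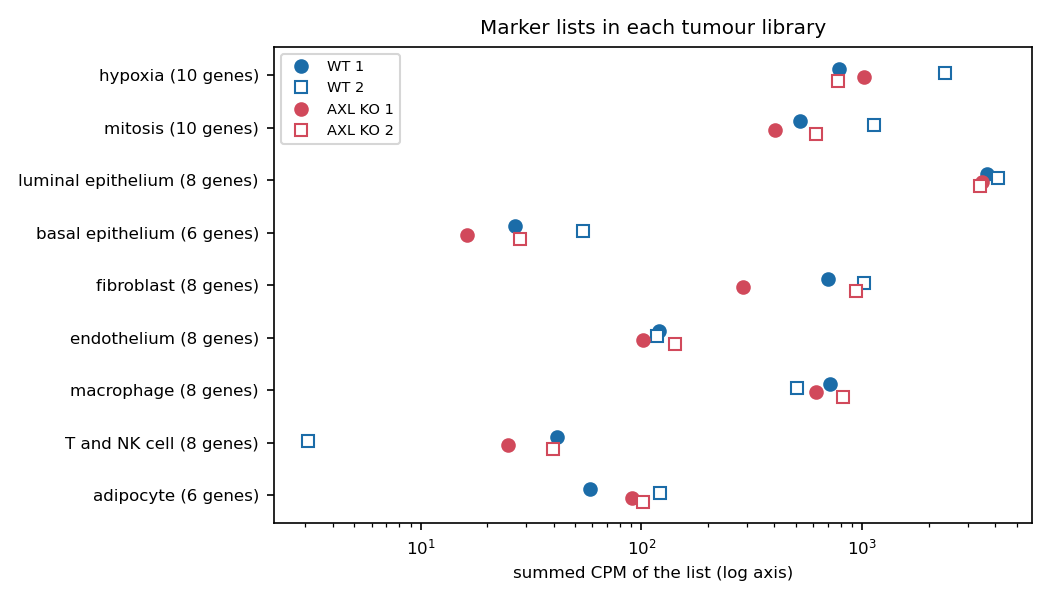
Summed CPM of each marker list (log axis) in the WT libraries (blue) and AXL KO libraries (red), filled circles for replicate 1 and open squares for replicate 2. WT replicate 2 stood apart for hypoxia genes at 2361 CPM and for T and NK cell markers at 3.09 CPM.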

How the data were processed

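RNA was sequenced in 4 MMTV-Neu tumours, with groups and replicate numbers from the sample titles. The deposited files hold whole-number read counts per Ensembl gene, not normalised. Summary lines that name no gene were removed first; of all reads listed, they held 5.27% to 8.11% outside genes, 0.635% to 1.85% ambiguous and 23.2% to 28.1% not unique. Build GRCm38 and the tools HTSeq 0.5.3, TopHat2 2.0.10, DESeq2 1.4.5 and CASAVA 1.8 are named, without roles, in the submitters' processing notes. The strand setting is not given in the sources used here. Symbols, positions and exon lengths came from GENCODE M21 (GRCm38), which held 36429 of the 38293 gene IDs.

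Genes were filtered with filterByExpr by group, scaled with TMM factors (0.978 to 1.01) and tested with edgeR 4.0.16 (quasi-likelihood, R 4.3.3) over 14330 genes with Benjamini-Hochberg adjustment. The common dispersion was 0.0961. Standard errors are the log2 difference over the root of the F statistic. Pairs of libraries differed by a chi-square of 24.2 to 120 per degree of freedom, more than sampling noise gives. The edgeR and DESeq2 tests were also run on simulated counts, drawn with the gene means, library sizes and common dispersion of these data. The members and lists were chosen with earlier results of these data known. Beside the 10 members, Axl and Erbb2, the 3 genes with the smallest p in each pathway list were named. Alternatives were DESeq2 size factors, library totals, 2 other filters, DESeq2 1.42.0, limma-voom 3.58.1, the replicate number as a block, and each library left out. Protein sequences were not used here.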

Additional observations from a re-analysis of the deposited data

How the results depend on the processing

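Of 99 values of the 9 tested genes over 11 alternatives, 93 kept their direction and their side of the threshold, 5 turned sign and 1 (Spry4) passed. The sign changes came only from leaving out a library: without WT replicate 2 the log2 differences of Dusp5, Spred1, Spry1 and Spry2 were −0.32, 0.13, 0.0032 and −0.066, and without AXL KO replicate 1 that of Spry1 was 0.086. Over the libraries left out Dusp5 reached 1.17 and Spry2 0.40, and Spry1 went down to −0.37. A group with a library left out holds 1 library, which was assumed to vary like the others. With 1 library left out, edgeR called 0 to 246 genes, the highest without WT replicate 1, and 0 to 1 of the 9. Groups then did not overlap for 5 to 9 of the 9, as fewer libraries have to be apart: without WT replicate 2 it was 7 of the 9 and 9817 of all 14693 genes tested. The 9 of 9 came without WT replicate 1, which leaves WT replicate 2. That library was the highest or lowest of all 4 for 70.4% of all tested genes. To lie outside the AXL KO pair alone is a weaker condition, so its share would be at least as large. The 5 of 9 came with either AXL KO library left out. Shares of all genes were not counted without WT replicate 1 or without either AXL KO library. The counts with a library left out thus cannot be read as particular to the 9 genes. The median log2 difference ran from −0.17 to 0.086, and was 0.064 with no low-count filter, where Fosl1 entered. DESeq2 called 16 genes. The labels do not say whether the same replicate numbers pair the libraries. The difference of replicate 1 and 2 correlated at −0.045 between the groups across genes. That value cannot decide it, since WT replicate 2 stood apart from the other libraries. With the replicate block edgeR called 0 genes, and 571 against 314 without the block had an unadjusted p under 0.05, and the median was −0.02. With all 4 libraries, 2 a group, the difference of Axl did not pass the adjusted threshold in edgeR either. With 1 library left out, the log2 difference of Axl ran from −3.68 to −2.86.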
